A study of Mus musculus with 6 samples.

Results

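The route of the insulin signal to the glucose transporters of muscle was followed through 10 genes, from the receptor to the cell surface. In order of their roles, these were the receptor Insr, the adaptors Irs1 and Irs2, the regulatory lipid-kinase subunit Pik3r1, the kinases Akt1 and Akt2, the Rab GTPase-activating proteins Tbc1d1 and Tbc1d4, and the transporters Slc2a1 (GLUT1) and Slc2a4 (GLUT4). They were chosen by name, with earlier results of these data known. A probe belonged to one of them when its RefSeq accession mapped to that symbol, which gave 17 probes of 10 genes among 55681 probes and 21368 named genes on the array. The groups were Old, 25 months of age (3 samples), and Young, 13 weeks of age (3 samples). All were male mice, with gastrocnemius as the tissue, and no strain, genotype or treatment is given in the sources used here. The RNA carried 1 dye, Cy3, and each sample had a single-colour Agilent array of its own. Nothing in the labels says that the samples of an age came from separate animals. The p-values therefore measure only how far these samples scatter, and that scatter may be technical.

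Insulin binding turns on the receptor's tyrosine kinase, and the IRS adaptors then recruit phosphoinositide 3-kinase through its p85 subunit. The lipid it makes brings Akt to the membrane, and Akt phosphorylates the TBC1D proteins, which otherwise hold GLUT4 vesicles inside the fibre. Skeletal muscle takes up most of the glucose cleared after a meal by this route, with GLUT4 as the insulin-responsive carrier and GLUT1 as a basal one. Much of the control is by phosphorylation and vesicle movement, which a transcript array does not measure.

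Levels are given as log2 signal relative to the 75th percentile of the same array, so that a value of 0 equals that percentile. A level belongs to its probe and is compared between arrays, not between probes. Each of the 17 probes exceeded background clearly on the 6 arrays, so none was lost to the filter on dim probes, which asked for at least 3 arrays and kept 28012 probes. Before any result, Old replicate 1 has to be set apart. Its mean negative-control signal was 61.3, against 53.0 and 52.2 on the other Old arrays and 51.9 to 55.1 on the Young arrays, and its spike-in slope was 0.840, against 0.925 to 0.941 on the other 5. Values of the members without it are therefore given where it turned their sign or moved them by over 1.5 times. The array weight from limma was also low for Young replicate 3, at 0.521, beside 0.466 for Old replicate 1. The rest had 1.15 to 2.11. Markers of the skeletal muscle fibre were checked, which bear on muscle in general and not on which muscle was taken. All 10 listed fibre genes, among them Acta1 and Ckm, were detected above background on every array, with a summed linear level of 4636 to 5883 in Old and 5578 to 6720.5 in Young, in multiples of the array's 75th percentile. As in any bulk sample, fewer cells of a type and less RNA per cell cannot be told apart.

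The first question was whether any step of this route differed between the ages at the transcript level. None of the 17 probes passed, with 0 of 17 at an adjusted p under 0.05 (limma's moderated test, Benjamini-Hochberg over all 28012 probes), where 0.264% of all probes were called (0.196% higher and 0.0678% lower in Old). Adjusted p ran from 0.317 to 0.962. At an unadjusted p under 0.05 there was 1 probe, that of Slc2a4, beside 14.2% of all probes (8.46% lower and 5.71% higher in Old). By value 10 of the 17 probes were lower in Old and 7 higher, with a median log2 difference of -0.14 beside -0.07 over all probes. Without Old replicate 1 the count was again 0 of 17 at the adjusted threshold, beside 0.824% of all probes, and 2 at the unadjusted one, beside 17.6%.

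The absence of a call does not show equality, and the intervals say how much room was left. The narrowest 95% interval, that of a probe of Akt2, reached 0.37 to either side on the log2 scale, and the widest, that of Pik3r1, reached 1.89. In simulated arrays with the same spread, 4 of 50 probes changed by 1 on the log2 scale were called, against 45 of 50 changed by 2.

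**Figure D1:**
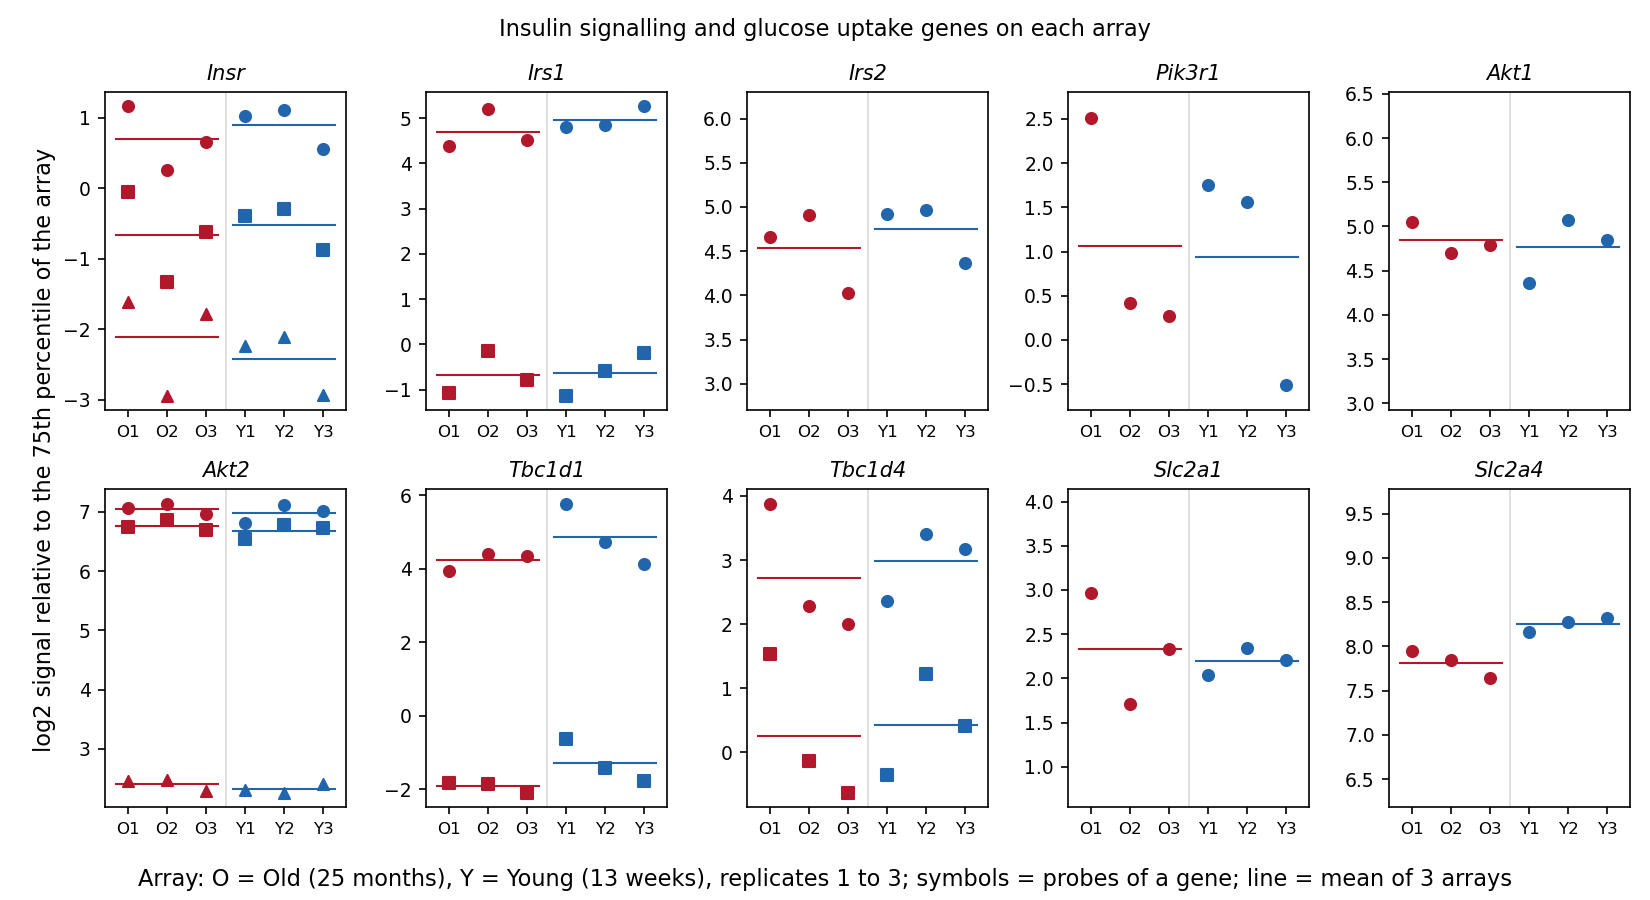
Level of each of the 10 genes on each array (y axis, log2 signal relative to the array's 75th percentile; x axis, Old replicates 1 to 3 in red and Young replicates 1 to 3 in blue; symbols are probes of a gene, lines are means of 3 arrays). Each panel has its own axis range. Only in the Slc2a4 panel and for the dimmer Tbc1d1 probe did the 3 Old values all lie below the 3 Young values.

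The receptor came first. Insr had 3 probes. The brightest (A_52_P494514) read 1.16, 0.26 and 0.66 in Old replicates 1 to 3 and 1.03, 1.12 and 0.56 in Young replicates 1 to 3. The ages overlapped, with low values on Old replicate 2 and Young replicate 3. Its mean was 0.70 ± 0.45 in Old and 0.90 ± 0.30 in Young (SD, n = 3 each), a log2 difference of -0.21 ± 0.28 (SE here and below; limma adjusted p = 0.756), with a 95% interval from -0.87 to 0.46. The second probe gave -0.14 ± 0.34 and the dimmest, A_55_P2172566, 0.32 ± 0.40, so even the sign was not shared. Without Old replicate 1 the 3 values were -0.44, -0.45 and 0.06. The probes nevertheless traced one profile over the arrays, with pairwise r from 0.739 to 0.976 over the 6 arrays (same arrays, same gene, no test).

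Below the receptor, the adaptors also overlapped between the ages. Irs1 is the main insulin receptor substrate of muscle, and its brighter probe (A_52_P175242) read 4.38, 5.19 and 4.52 in Old and 4.80, 4.84 and 5.26 in Young. Old replicates 1 and 3 lay below all Young values and Old replicate 2 did not. The difference was -0.27 ± 0.27 (limma adjusted p = 0.662, 95% interval -0.90 to 0.36), and -0.04 ± 0.33 by the dimmer probe, A_52_P171212. These were -0.11 and 0.16 without Old replicate 1 (adjusted p = 0.862 and 0.841). Irs2, the sister adaptor, whose transcription falls when insulin acts in liver, read 4.66, 4.91 and 4.03 in Old and 4.93, 4.97 and 4.37 in Young. Old replicate 3 held the lowest value of the 6. The difference was -0.22 ± 0.29 (limma adjusted p = 0.747, 95% interval -0.91 to 0.46).

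The 250 bases before the starts of Irs1 and Irs2 are shown because these adaptors had the same sign of difference by their brightest probes and were the members whose windows held the E-box CACGTG, the letters read by several basic helix-loop-helix factors. It lies at position -115 before the start in Irs1 and at -44 in Irs2, and it occurs in 6.02% of 32851 windows of this length in the table (2 of the 14 windows of 8 members). Insr and Slc2a4 had no window. The shared sign is not particular to these adaptors, as 6 of the 10 members were lower in Old by their brightest probes. Capitals mark the E-box and the GC box GGGCGG, searched on both strands, with no overlap between them in these windows. The sequences are from RefSeq, build GRCm38.p6, each read 5′ to 3′ on the gene's strand. Such a match is a description of the letters and not of binding.
Irs1, chr1:82291440-82291689, minus strand: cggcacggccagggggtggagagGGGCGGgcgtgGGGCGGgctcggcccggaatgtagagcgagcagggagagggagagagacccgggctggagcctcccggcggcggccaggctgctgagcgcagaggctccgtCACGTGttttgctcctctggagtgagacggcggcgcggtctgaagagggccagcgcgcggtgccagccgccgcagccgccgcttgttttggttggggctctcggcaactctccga
Irs2, chr8:11008930-11009179, minus strand: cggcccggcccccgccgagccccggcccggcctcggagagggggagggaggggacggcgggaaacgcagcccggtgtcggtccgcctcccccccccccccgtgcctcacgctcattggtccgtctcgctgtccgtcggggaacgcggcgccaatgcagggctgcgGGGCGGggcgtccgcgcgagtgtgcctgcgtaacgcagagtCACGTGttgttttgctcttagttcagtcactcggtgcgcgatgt

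Pik3r1, which encodes the p85 alpha regulatory subunit that couples the adaptors to the lipid kinase, varied most. Its probe (A_51_P511236) read 2.52, 0.41 and 0.27 in Old and 1.75, 1.56 and -0.51 in Young. One Old array stood above all Young arrays and one Young array stood below all Old arrays, so the spread lay within the ages and not between them. The range over the 6 arrays was 3.02 on the log2 scale, and the SD within an age, 1.25, was larger than that of 98.7% of all probes (median 0.286). The difference between ages was 0.13 ± 0.80 (limma adjusted p = 0.95), with a 95% interval from -1.76 to 2.02. Without Old replicate 1 it was -0.59 ± 0.68 (adjusted p = 0.683) and without Young replicate 3 also -0.59, both with the opposite sign.

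Among the kinases, Akt2 varied little from array to array. This isoform, which insulin uses to move GLUT4 in muscle and fat, had 3 probes, and the brightest (A_55_P2066518) read 7.06, 7.14 and 6.96 in Old and 6.81, 7.12 and 7.01 in Young. The ages overlapped on all 3 probes. Their differences were 0.07 ± 0.17, 0.08 ± 0.16 and 0.09 ± 0.16, with adjusted p from 0.817 to 0.856. For the brightest probe the 95% interval ran from 0.802 to 1.38 as a fold of Old over Young. Under this scaling a change of 1.5-fold in either direction lies outside it. The log2 difference of that probe was 0.28 without scaling between arrays, 0.21 with quantile normalization and -0.05 with median centring. No interval is given for these. Within an age the SD of the 3 probes was 0.093 to 0.128, and at most 9.18% of all probes had a smaller one. Akt1, the more widely expressed isoform, was read by 2 spots per array at 5.05, 4.70 and 4.79 in Old and 4.36, 5.08 and 4.85 in Young. Young replicate 1 was the low one. The difference was 0.08 ± 0.23 (limma adjusted p = 0.886, 95% interval -0.46 to 0.63), and -0.02 without Old replicate 1.

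**Figure D2:**
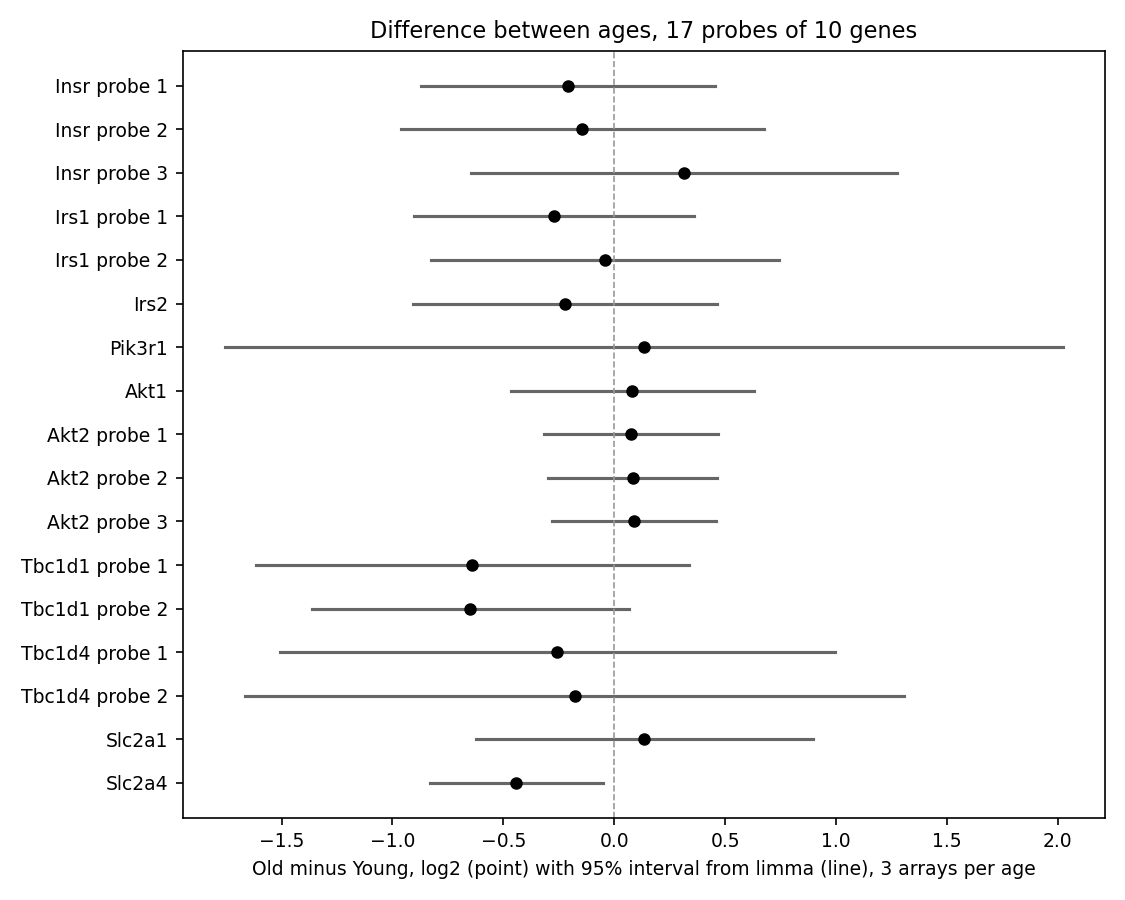
Old minus Young difference of each of the 17 probes (x axis, log2; points, with 95% intervals from limma as lines, 3 arrays per age; y axis, probes from receptor to transporter, brightest probe of a gene first). The Akt2 and Slc2a4 intervals are the 4 narrowest and that of Pik3r1 is the widest, and only the Slc2a4 interval, from -0.83 to -0.05, leaves out 0 before adjustment over all probes.

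Next came the TBC1D proteins, the step where the Akt signal meets the GLUT4 vesicle. By value Tbc1d1 had the 2 lowest differences of the 17 probes. This protein is also a target of the AMP-activated kinase in contracting muscle. Its brighter probe (A_55_P2113837) read 3.95, 4.39 and 4.36 in Old and 5.77, 4.72 and 4.12 in Young, and the dimmer one (A_55_P2178733) read -1.81, -1.85 and -2.10 in Old and -0.64, -1.41 and -1.77 in Young. Young replicate 1 was the highest array on both. On the brighter probe Young replicate 3 lay inside the Old range, while on the dimmer one the highest Old value, -1.81, lay just below the lowest Young value, -1.77. Without scaling between arrays the ages overlapped there too. Over all probes, 21.8% had ages that did not overlap. The differences were -0.64 ± 0.41 (limma adjusted p = 0.509, 95% interval -1.62 to 0.34) and -0.65 ± 0.30 (limma adjusted p = 0.389, 95% interval -1.36 to 0.07), and the probes followed each other over the arrays with r = 0.912. Young replicate 1 carried much of this. Without it the differences were -0.19 and -0.33, and without Young replicate 3 they were -1.02 and -0.90.

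The 2 windows before the listed starts of Tbc1d1 are shown because this gene had the largest differences by value and because its starts differ in their letters. The GC box GGGCGG, marked in capitals and read by Sp-family factors, was found 4 times in the second window, counting both strands, and not in the first. It occurs in 32.7% of all windows and in 8 of the 14 member windows. Such a contrast is not particular to Tbc1d1, as Pik3r1, Akt1 and Akt2 also had windows with and without it. Which start the probes report was not tested.
Tbc1d1, first start, chr5:64160010-64160259, plus strand: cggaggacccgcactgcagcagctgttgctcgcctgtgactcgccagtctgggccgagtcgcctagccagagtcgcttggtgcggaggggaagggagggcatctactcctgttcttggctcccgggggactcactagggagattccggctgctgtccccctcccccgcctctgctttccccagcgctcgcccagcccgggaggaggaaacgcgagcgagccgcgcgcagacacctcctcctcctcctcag
Tbc1d1, second start, chr5:64230107-64230356, plus strand: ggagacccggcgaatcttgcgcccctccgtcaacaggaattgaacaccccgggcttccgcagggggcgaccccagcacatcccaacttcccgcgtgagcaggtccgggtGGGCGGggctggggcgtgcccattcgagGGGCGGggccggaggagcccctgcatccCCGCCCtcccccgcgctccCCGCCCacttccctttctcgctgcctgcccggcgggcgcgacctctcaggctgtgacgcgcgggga

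Tbc1d4 (AS160), the main Akt substrate on GLUT4 vesicles, behaved differently across arrays. Its brighter probe (A_55_P2024953) read 3.88, 2.28 and 2.01 in Old and 2.37, 3.41 and 3.17 in Young. Old replicate 1 was the highest of all 6 and the other Old arrays were the lowest. The difference was -0.26 ± 0.53 (limma adjusted p = 0.843, 95% interval -1.51 to 0.996), and -0.18 ± 0.63 by the dimmer probe, which followed the same profile (r = 0.974 over 6 arrays). Without Old replicate 1 the values were -0.83 ± 0.34 and -0.81 ± 0.46 (adjusted p = 0.280 and 0.412). With the row of the slide as a block, which leaves Old replicate 1 against the 3 Young arrays of its own row and so equals the value within that row, they were 0.90 and 1.1 (adjusted p = 0.487 and 0.524, with that lone Old array assumed to vary like the others). Without Old replicate 3 the values were 0.10 and 0.27, so the sign depended on which Old arrays were compared.

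At the surface, the basal transporter overlapped between the ages. Slc2a1 (A_51_P464738) read 2.97, 1.71 and 2.33 in Old and 2.04, 2.35 and 2.21 in Young, with the highest and the lowest of the 6 values both in Old. The difference was 0.14 ± 0.32 (limma adjusted p = 0.863, 95% interval -0.62 to 0.90). Without Old replicate 1 it was -0.18 (adjusted p = 0.730).

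GLUT4 was the member closest to a difference. Slc2a4 (A_51_P217498), the carrier that insulin and contraction bring to the fibre surface, read 7.95, 7.84 and 7.64 in Old and 8.16, 8.27 and 8.32 in Young. All 3 Old values lay below all 3 Young values, which was the case for 14.4% of all probes. The mean was 7.81 ± 0.16 in Old and 8.25 ± 0.08 in Young (SD, n = 3 each), a difference of -0.44 ± 0.16, or 1.36-fold lower in Old. It had an unadjusted p = 0.0323 and an adjusted p = 0.317 in limma's test, so it did not pass. Leaving out any 1 array kept the sign, with differences from -0.51 to -0.36. Under the other alternatives they ran from -0.57 to -0.30. The slide row as a block is among these and leaves Old replicate 1 alone against the Young arrays.

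The array carries this probe on 10 spots, which shows the measuring error directly. On a single array the SD over the spots used was 0.035 to 0.069 on the log2 scale. The lowest used Young spot, 8.10 on Young replicate 1, was above the highest used Old spot, 8.02 on Old replicate 1. The 1 Old spot left out as an outlier, also on Old replicate 1, read 8.13 and lay within the Young range. On Young replicate 1 only 6 of 10 spots were used, as 4 were marked as outliers by the scanner software. With all spots kept, an alternative chosen after seeing the data, the difference was again -0.44. Spots of an array share its RNA and are not replicates of an age.

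**Figure D3:**
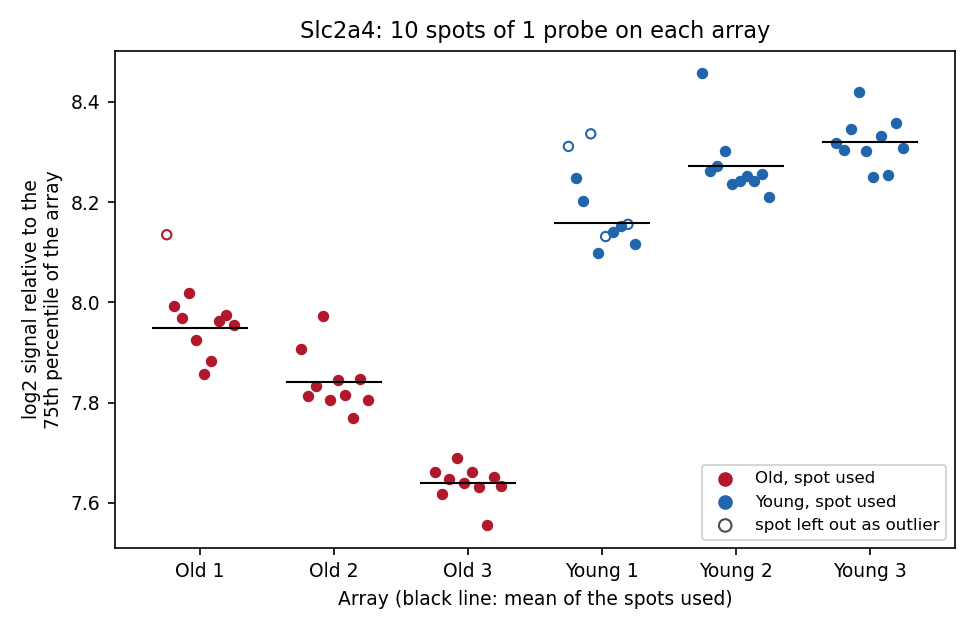
Slc2a4 signal on each of its 10 spots per array (y axis, log2 signal relative to the array's 75th percentile; x axis, arrays, Old in red and Young in blue; filled points were used, open points were left out as outliers, black lines are means of the spots used). The spots of an array lie close together, and every used Old spot, at most 8.02, is below every used Young spot, at least 8.10.

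Scaling mattered for Slc2a4. Before scaling, the mean signal was 90562, 77943 and 63754 in Old and 100956, 93067 and 77713 in Young, which overlap. Quantile normalization gave -0.30 (adjusted p = 0.483), again with overlapping ages, since Old replicate 1 then lay above Young replicate 3. Centring on the median gave -0.57 (adjusted p = 0.291), where all probes shifted to a median of -0.20. Other bright probes were lower in Old too. Of the 363 probes whose mean level lay within 0.5 of that of Slc2a4, 85.1% were lower by value, their median difference was -0.15, and 4.96% had a difference as low as or lower than Slc2a4. All 10 fibre markers were lower by value, with a median of -0.21. Without Old replicate 1 the median was -0.13, and Acta1 alone was then higher (0.27). The part of this general shift in the Slc2a4 value was not tested.

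By Pearson's r over the 6 arrays and 13841 named genes, the profiles most like that of Slc2a4 were those of Sparcl1 (r = 0.9998), a matricellular protein, Rhbdd3 (r = 0.9991), of the rhomboid family, and Ltbp4 (r = 0.9989), which binds latent TGF-beta. Sparcl1 read 6.21, 5.99 and 5.56 in Old and 6.66, 6.93 and 7.01 in Young. Their differences between the ages were -0.95, -0.48 and -0.91, with adjusted p from 0.165 to 0.292. In all 28 genes had r of at least 0.99, and values on the same arrays share labelling and scaling.

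Relations between members could hardly be tested with 6 arrays. Among the 45 pairs of members (brightest probes, 6 arrays), 1 had an unadjusted p under 0.05 and 0 passed after adjustment over the 45 (exact permutation test, two-sided, lowest adjusted p = 0.670). The smallest p that 6 arrays allow is 0.00139, so a single pair could not pass after adjustment over 45. That pair was Insr and Pik3r1 (r = 0.827, exact permutation p = 0.0486; Spearman's rho = 0.771, exact permutation p = 0.103; adjusted p = 0.670 and 0.875). Leaving out Old replicates 1 and 2, the arrays farthest from the median of Insr, r was 0.968. Each age has 3 arrays and the second slide row has 2, too few for values within age or row.

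**Figure D4:**
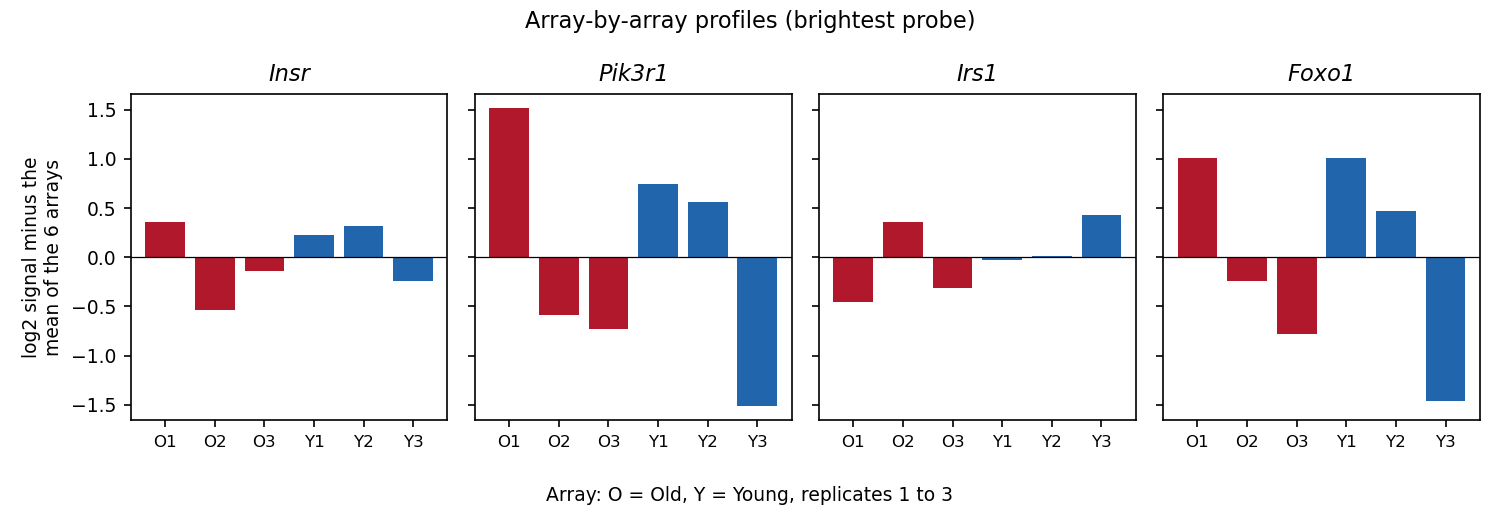
Array profiles of Insr, Pik3r1, Irs1 and Foxo1 (y axis, log2 signal of the brightest probe minus its mean over the 6 arrays; x axis, Old replicates 1 to 3 in red and Young replicates 1 to 3 in blue). Pik3r1 and Foxo1 are above their mean on Old replicate 1 and Young replicates 1 and 2 and below it on the other 3 arrays, so the split crosses the ages.

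The route around the members was followed in 7 lists of 106 genes, of which 98 were tested by their brightest kept probe. None of the 98 passed (limma, 0 at an adjusted p under 0.05, beside 0.249% of all genes measured this way), and 19 (19.4%) had an unadjusted p under 0.05, 5 higher and 14 lower, beside 14.3% of all genes. By value 68.4% were lower in Old, beside 58.8% of all genes, and the median was -0.11 beside -0.08. The values below are log2 differences of genes that did not pass, and those named are among the 3 with the lowest p in each list.

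Among 15 receptor-proximal adaptors and phosphatases the median was -0.02, with 9 lower by value. Grb14, an adaptor that inhibits the insulin receptor kinase, stood out by array. It read -2.29, 1.02 and 0.94 in Old and -1.54, -2.49 and -3.07 in Young. Old replicate 1 lay inside the Young range and the other Old arrays far above it. The difference was 2.26 ± 0.91 (limma adjusted p = 0.341), and without Old replicate 1 it was 3.35, the 1 list gene then called (adjusted p = 0.0407). Blocked by slide row, which leaves Old replicate 1 alone against the Young arrays, it was 0.073. The receptor-type phosphatase Ptprf (LAR), which can dephosphorylate the receptor, was 2.86-fold lower by value (-1.52 ± 0.39, adjusted p = 0.201) and the phosphatase Ptpn11 (SHP2) had -0.50 ± 0.16.

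For 19 tested genes of phosphoinositide 3-kinase, Akt and their brakes the median was -0.18, with 14 lower by value. Rictor, the subunit of the complex that phosphorylates Akt, had 0.92 ± 0.21 (adjusted p = 0.165), and the catalytic subunit Pik3cd, typical of leukocytes, -0.65 ± 0.18 (its other probes -0.15 and -0.49).

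In the GLUT4 vesicle list 14 of 24 genes were lower by value and the median was -0.05. Pak1, a kinase of the Rac1 actin branch, read 1.41, 0.81 and 2.07 in Old and 0.38, 0.21 and -0.48 in Young, without overlap (1.39 ± 0.37, adjusted p = 0.211). Rhoq (TC10), a small GTPase, had -0.49 ± 0.16, and Rab13, one of the Rab proteins that the TBC1D proteins act on, 0.90 ± 0.31 (0.75 by its other probe).

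Of 9 further Slc2 transporters 5 were tested, and Slc2a2, Slc2a5 and Slc2a9 were not well above background on any array. Slc2a6, a transporter of lysosomes in inflammatory macrophages, was 2.31-fold higher by value in Old, reading -2.31, -1.88 and -1.74 in Old and -2.96, -3.11 and -3.50 in Young (1.21 ± 0.23, limma adjusted p = 0.126). The 8 listed macrophage markers had a summed level of 23.5 to 28.4 in Old and 19.9 to 22 in Young, and 7 of 8 were higher by value; their part in the Slc2a6 value was not tested. Slc2a13, a proton-coupled inositol carrier, had -0.53 ± 0.21, and Slc2a10 had 0.49 ± 0.88 (0.09 without Old replicate 1) and was well above background on 2 of 3 arrays of each age.

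Downstream, 13 of 15 genes of glucose phosphorylation, glycogen control and Akt substrates were lower by value (median -0.22). Ppp1r3a, the muscle subunit that brings phosphatase 1 to glycogen, read 4.37, 4.03 and 3.65 in Old and 4.91, 4.80 and 5.05 in Young, without overlap (-0.90 ± 0.22, 1.87-fold lower, adjusted p = 0.184). Gsk3b, which Akt inhibits to free glycogen synthase, had -0.73 ± 0.26, but its other probes gave -0.03 and -0.94, and hexokinase Hk1 had -0.39 ± 0.16 (-0.35 by its other probe).

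The 11 genes of the AMP-activated kinase arm, a route to GLUT4 that does not need insulin, had a median of -0.21, with 8 lower by value and none at an unadjusted p under 0.05. The catalytic subunits Prkaa2 and Prkaa1 had -0.32 ± 0.17 and -0.31 ± 0.18, and the scaffold Cab39 -0.23 ± 0.15 (-0.13 by its other probe). Blocked by slide row, so with Old replicate 1 alone against the Young arrays, Prkaa2, Prkaa1 and Cab39 had -0.086, -0.069 and -0.12. Among 9 tested factors that act on the Slc2a4 gene, 7 were lower by value (median -0.11). The immediate early receptor Nr4a1 read 5.33, 6.65 and 6.14 in Old and 7.51, 6.94 and 7.41 in Young, without overlap (-1.25 ± 0.35, 2.38-fold lower, adjusted p = 0.228). The thyroid hormone receptor Thra had -0.81 ± 0.26 (-0.17 by its other probe) and the repressor Hdac5 -0.70 ± 0.29. With the row as a block, again Old replicate 1 alone against the Young arrays, Nr4a1, Thra and Hdac5 had -1.96, -0.49 and -0.11.

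**Figure D5:**
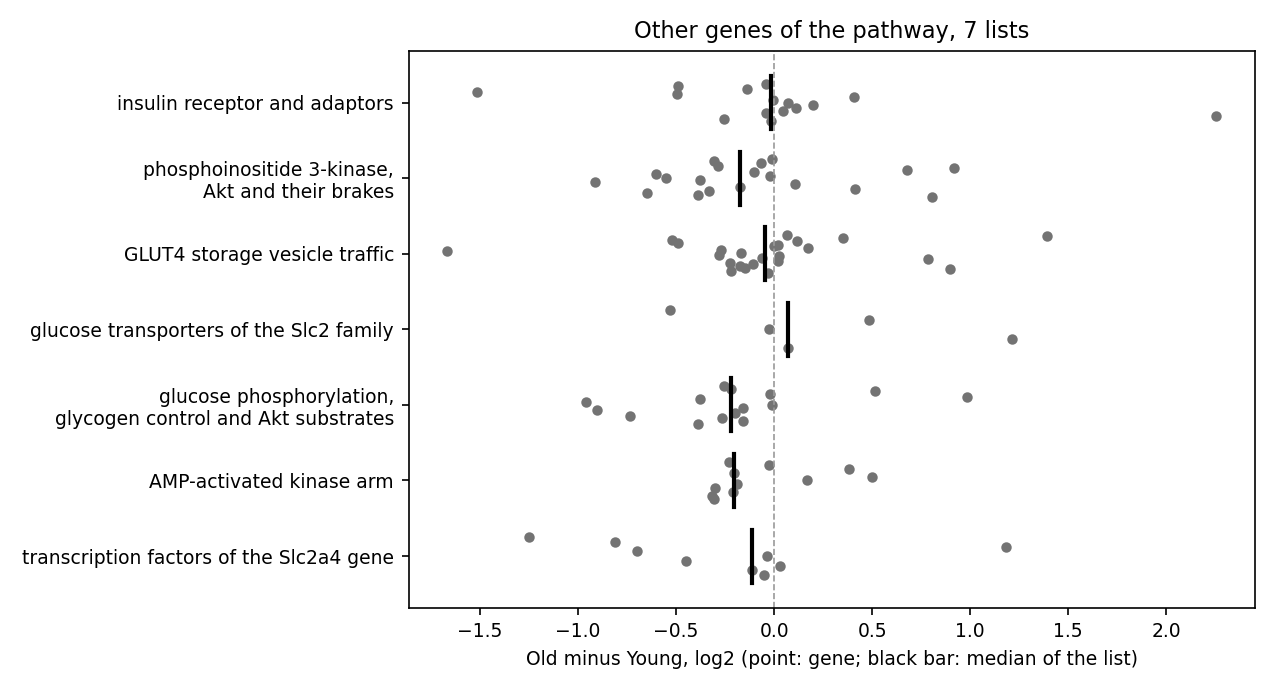
Old minus Young difference of the 98 tested genes around the members, by list (x axis, log2; points are genes by their brightest kept probe, black bars are list medians). The medians lie between -0.22 and 0.07, none of the genes passed the adjusted threshold, and Grb14 is the point at 2.26.

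Several members are also expressed outside the fibre, so markers of other cells are set beside them. Summed linear levels, in multiples of the array's 75th percentile, were 14.2 to 19.2 in Old and 19.8 to 24.5 in Young for 8 endothelial genes, which did not overlap, and 93.9 to 124.4 in Old and 123.6 to 132 in Young for the 7 tested of 8 adipocyte genes. Those of 8 fibro-adipogenic genes were 219 to 346 in Old and 424 to 469 in Young. For the 5 tested of 7 erythroid genes they were 124 to 157 in Old and 202 to 263 in Young, and for the 7 tested of 8 Schwann cell and perineurial genes 20.7 to 34.8 in Old and 20.7 to 37.9 in Young. The 5 tested of 8 neutrophil genes summed to 14.3 to 21.3 in Old and 1.19 to 1.68 in Young. Of these, S100a8 and S100a9 (4.79 and 4.68) and Retnlg (3.43, adjusted p = 0.0619) were higher by value, while Camp (-0.42, adjusted p = 0.306) and Elane (-0.33, adjusted p = 0.459) were lower by value. Each of the 5 had no overlap between the ages, as did 21.8% of all probes. S100a8 and S100a9 rose and Prx (-1.31) fell at an adjusted p under 0.05 in limma's test, while Ngp and Cldn1 were not well above background on any array. The fibro-adipogenic, endothelial and erythroid sums were lower in Old on every array, as Slc2a4 was, and their part in its value was not tested. Such linear sums weigh the brightest genes most. Gene by gene, 6 of 8 fibro-adipogenic genes were lower by value and 2 higher. For the endothelial genes it was 5 of 8 lower and 3 higher, and all 5 tested erythroid genes were lower.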

How the data were processed

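The authors deposited 1 scanner file per array, and the processed intensity of a spot in it had its background taken off and its spatial trend removed with Agilent Feature Extraction. The version is 11.0.1.1 per the file headers and 9.5 per the submitters' processing notes. The authors' deposited value table holds the same intensity scaled to 100 at each array's 75th percentile and rounded (all values within 1 of this), with column medians of 9, 7 and 6 in Old and 6, 7 and 7 in Young.

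Control spots and outlier spots (161 to 212 per array) were left out, and the log2 processed intensity minus the array's 75th percentile over non-control spots was the value of a spot, with the mean taken where a probe had several. Of 55681 probes, 28331 were named through the RefSeq table of GRCm38.p6, while 27350 had no match. The grid uses build mm9, so only the promoter table's own coordinates are given. Between 49.9% and 54.8% of spots were well above background, none was saturated, and the number of arrays limits the precision. Those that passed the background filter (at least 3 of 6 arrays) were tested with limma 3.58.1 in R 4.3.3 (two-sided, Benjamini-Hochberg). All arrays share 1 slide and 1 scan; Old replicates 2 and 3 lie in row 2 and the others in row 1. With 3 arrays per age, exact permutation of 1 probe's values gives no p under 0.1, and none is given. The fit was tested on simulated data. Tables used Python 3.11.15.

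The members, lists and tests were chosen with earlier results of these data known. Named are all members, the 3 genes of each list with the lowest p (1 of them is not reported here), and the 3 profiles most like Slc2a4. Alternatives were other scalings, background corrections, filters, probe summaries, variance models and blocks, the deposited values, outlier spots kept and each array left out. Deviations from the age mean correlated at -0.06, -0.28 and 0.02 between samples of the same number, so the numbers were not taken to pair the samples.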

Additional observations from a re-analysis of the deposited data

How the results depend on the processing

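Under each of the 19 alternatives, 0 member probes passed the adjusted threshold. The pathway genes gave 0 calls except for 1 with array weights (Slc2a6, adjusted p = 0.0498) and 1 without Old replicate 1 (Grb14), so that leaving out arrays gave 0 to 1. Calls over all probes numbered 74 as reported, 233 with array weights, 43 among probes well above background on all arrays, 35 with the slide row as a block, 11 with no filter, 9 with the replicate block, and from 2 (without Old replicate 3) to 225 (without Old replicate 1) with an array left out. With the replicate number as a block, Slc2a4 had -0.44 (adjusted p = 0.530), and no member call changed. Higher calls were 55 of 74 as reported, 38 of 61 with median centring, 47 of 79 with normexp, 17 of 35 with the row as a block, 105 of 225 without Old replicate 1, and 11 of 11 without Young replicate 1 or 2.

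Of 707 single values, 31 changed sign, none with an unadjusted p under 0.05. Akt1 became -0.0029 with array weights and -0.047 with median centring, and the 3 Akt2 probes -0.054, -0.045 and -0.040 with median centring. Insr became 0.26 and 0.46 with the slide row as a block (first and second probe) and the second 0.029 with normexp. The row block leaves Old replicate 1 alone against the Young arrays. The dimmer Irs1 probe became 0.16, Pik3r1 -0.66, Slc2a1 -0.051 and Slc2a10 -0.23 with array weights, and Tbc1d4 0.90 and 1.1 with the row as a block. With arrays left out, differences ran from -0.12 to 0.24 for Akt1, -0.011 to 0.14 for the brightest Akt2 probe, -0.44 to 0.0097 and -0.45 to 0.19 for Insr, -0.30 to 0.19 for the dimmer Irs1 probe, -0.41 to 0.031 for Irs2, -0.59 to 0.54 for Pik3r1, -0.18 to 0.45 for Slc2a1, -0.43 to 1.13 for Slc2a10 and -0.83 to 0.10 and -0.81 to 0.27 for Tbc1d4. The cause was not tested.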

Other observations

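Foxo1, the transcription factor that Akt keeps out of the nucleus and that is active in fasted muscle, was among the listed Akt substrates. It was chosen for a closer look after its values were seen. It read 4.81, 3.56 and 3.03 in Old and 4.81, 4.28 and 2.34 in Young, a difference of -0.01 ± 0.72 (limma adjusted p = 0.996), and -0.51 without Old replicate 1 (adjusted p = 0.739). The 6 arrays ranked in the same order for Foxo1 as for Pik3r1 (Pearson's r = 0.966, exact permutation p = 0.00417, adjusted p = 0.0250; Spearman's rho = 1, exact permutation p = 0.00278, adjusted p = 0.0167; two-sided, 6 relations of Insr, Pik3r1 and Irs1 with the FoxO genes well above background on all arrays). Without Old replicate 1 and Young replicate 3, the arrays farthest from the median of Pik3r1, r was 0.961. The shared order rests on a near tie of Foxo1, 4.8131 on Old replicate 1 and 4.81245 on Young replicate 1. The other Foxo1 probe, with a difference of 0.12 between the ages, was not set against Pik3r1. Insr and Foxo1 had r = 0.736 (exact permutation p = 0.0986, adjusted p = 0.296; rho = 0.771, exact permutation p = 0.103, adjusted p = 0.308) and Irs1 and Foxo1 r = -0.536 (exact permutation p = 0.276, adjusted p = 0.415; rho = -0.657, exact permutation p = 0.175, adjusted p = 0.350). By Pearson's r the 3 relations with Foxo4 had adjusted p from 0.415 to 0.731. As the pair was picked after its values were seen, its p-values are a description, and 3 arrays per age are too few for values within an age or slide row.

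Feeding state, time of day and strain of the mice are not given in the sources used here.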
